A study of Mus musculus with 2 samples.

Results

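Genes of the AMPA receptor were followed in layer 5 pyramidal neurons, excitatory cells of a deep cortical layer that send axons to other brain regions. The set holds 10 of the 43346 genes in the deposited tables, taken by name and found by gene identifier: the pore subunits Gria1, Gria2, Gria3 and Gria4, the TARPs Cacng2, Cacng3 and Cacng8, the cornichons Cnih2 and Cnih3, and Shisa9. All 10 were found. They were listed by name and not by a cut on measured values, though with earlier results of these data known. RNA was measured by RNA-seq in 2 libraries of 1 group, replicates 1 and 2, each a pool of 50 neurons taken by laser capture from the brain of a wild-type male mouse at 8 months of age. The labels give the strain as B6NCrl in one place and as C57Bl5 or C57Bl6 in others, name no genetic change or treatment, and carry an antibody tag that reads Control. Both libraries carry the same donor identifier, so whether they come from different animals is not settled and their SD may hold no spread between animals. The smallest p that an exact two-sided permutation test allows with 2 libraries is 0.5, and none was computed.

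AMPA receptors are glutamate-gated cation channels that carry most fast excitatory transmission in the brain. Each channel is a tetramer of pore subunits, and the RNA of Gria2 is edited so that channels holding this subunit pass little calcium. Auxiliary proteins of the TARP, cornichon and Shisa families bind the tetramer and change its trafficking, gating and recovery from desensitization. Each pore subunit gene also has a pair of alternative exons, called flip and flop, which encode a short stretch of the ligand-binding domain and alter how fast the channel desensitizes.

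The flip and flop exons are shown because the transcript shares given further on turn on them. Each is 115 bases long, read from GENCODE M21 transcript sequences on GRCm38 (mm10), and each is an internal coding exon of its gene. The flop exon comes first in the direction of transcription in all 4 genes. In Gria1 (plus strand) flip lies at chr11:57310608-57310722 and flop at chr11:57309769-57309883. In Gria2 (minus strand) they lie at chr3:80690404-80690518 and chr3:80691320-80691434. In Gria3 (plus strand) they lie at chrX:41669501-41669615 and chrX:41654810-41654924. In Gria4 (minus strand) they lie at chr9:4427030-4427144 and chr9:4432773-4432887. The sequences are written 5′ to 3′ on the coding strand, and capitals mark the bases that differ between flip and flop of the same gene:
Gria1 flip: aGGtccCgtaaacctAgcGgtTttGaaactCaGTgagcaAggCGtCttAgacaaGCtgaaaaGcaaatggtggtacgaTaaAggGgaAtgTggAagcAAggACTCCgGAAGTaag
Gria1 flop: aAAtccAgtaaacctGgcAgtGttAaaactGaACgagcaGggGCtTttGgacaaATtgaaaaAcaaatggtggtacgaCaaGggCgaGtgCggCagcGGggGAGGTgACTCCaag
Gria2 flip: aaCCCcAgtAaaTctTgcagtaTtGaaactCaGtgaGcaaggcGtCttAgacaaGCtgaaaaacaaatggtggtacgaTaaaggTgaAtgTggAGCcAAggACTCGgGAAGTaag
Gria2 flop: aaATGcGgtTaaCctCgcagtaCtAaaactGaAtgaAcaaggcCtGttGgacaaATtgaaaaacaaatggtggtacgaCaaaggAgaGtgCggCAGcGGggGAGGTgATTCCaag
Gria3 flip: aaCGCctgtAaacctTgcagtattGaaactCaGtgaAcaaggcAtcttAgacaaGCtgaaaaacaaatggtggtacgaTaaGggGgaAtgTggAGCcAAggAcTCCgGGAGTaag
Gria3 flop: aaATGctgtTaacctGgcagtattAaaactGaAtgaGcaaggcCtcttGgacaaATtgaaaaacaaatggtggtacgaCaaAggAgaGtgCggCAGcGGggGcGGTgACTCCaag
Gria4 flip: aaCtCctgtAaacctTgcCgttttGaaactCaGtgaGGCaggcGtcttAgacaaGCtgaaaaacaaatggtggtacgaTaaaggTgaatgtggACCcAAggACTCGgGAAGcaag
Gria4 flop: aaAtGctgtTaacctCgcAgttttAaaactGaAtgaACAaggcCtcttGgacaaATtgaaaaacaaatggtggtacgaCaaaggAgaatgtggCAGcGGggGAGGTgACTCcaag
Flip and flop of the same gene differed at 36 of 115 bases in Gria1, 36 in Gria2, 32 in Gria3 and 31 in Gria4. The same exon was more alike between genes: flip exons differed at 9 to 14 bases and flop exons at 6 to 14. The exons of a pair were 724 bases apart in Gria1 and 801 in Gria2, but 14576 in Gria3 and 5628 in Gria4.

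Replicate 1 held 24171434 estimated reads and replicate 2 held 27946180, with 4.28% and 5.32% of them from spike-in RNAs. All 5 markers of excitatory neurons and all 5 of layer 5 reached 1 TPM (a transcript level scaled by transcript length and to a fixed total per library) in each library. Of all 43346 genes 14057 reached 1 TPM in replicate 1 and 13690 in replicate 2. Markers of other cells were also present at this level in each library. These were 6 of 7 for interneurons, 5 of 5 each for oligodendrocytes and astrocytes, and 4 of 5 each for oligodendrocyte precursors and microglia. Summed TPM of 7 interneuron markers was 3874 in replicate 1 and 1494 in replicate 2, with all 7 higher in replicate 1, while 4 of the 5 layer 5 markers were higher in replicate 2. The layer 5 sum of 2251 and 4715 TPM was mostly Pcp4, at 2134 and 4468, and Bcl11b went the other way, at 12.2 and 10.2. Oligodendrocyte precursor markers summed to 34.8 and 20.1 TPM, microglial markers to 98.2 and 38.9 and oligodendrocyte markers to 454 and 574, over 5 genes each. The 5 astrocyte markers summed to 347 and 383 TPM, of which Aldoc made up 272 and 326, while 3 of the 5 were higher in replicate 1 and the median log2 ratio over the 4 at a mean of 10 CPM (reads scaled to library size) or more was 0.41. In such pools fewer cells of a type and less RNA per cell cannot be told apart.

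Gria2 stood far above the other pore subunit genes in each pool. Gria2 (chr3:80681450-80802835), whose edited subunit sets calcium permeability, stood at 255 TPM in replicate 1 and 246 in replicate 2, from 26456 and 28522 estimated reads. Gria3 (chrX:41400854-41678601) stood at 85.2 and 105 TPM (95.2 ± 14.2, SD, n = 2). Gria1 (chr11:57011387-57330244), the subunit best known for activity-dependent insertion at synapses, stood at 59.2 and 48.3 TPM (53.7 ± 7.69). The order of these 3 genes was the same in each library, and their ranges did not overlap. Gria4 (chr9:4417896-4796234), known in cortex above all from interneurons, stood at 33.7 and 18.2 TPM (25.9 ± 10.9). It was the lowest pore subunit gene in each library and the one whose values lay farthest apart in relative terms. Gria2 exceeded Gria1 by 4.31-fold and 5.09-fold in TPM, Gria3 by 2.996-fold and 2.33-fold and Gria4 by 7.59-fold and 13.5-fold.

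Expressed as shares of summed pore subunit TPM, Gria2 was nearly the same in the 2 libraries and the other subunits moved around it. Gria2 held 58.9% ± 0.040 (SD, n = 2). Gria3 held 19.7% in replicate 1 and 25.2% in replicate 2, Gria1 13.7% and 11.6%, and Gria4 7.77% and 4.36%. Summed over the 4 genes the level was 433 and 417 TPM. Among 21474 protein-coding genes Gria2 ranked 489th and 537th, Gria3 1477th and 1244th and Gria1 1983rd and 2375th.

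Among the auxiliary members of the set the cornichon Cnih3 and the TARP Cacng3 were highest. Cornichons slow the closing and desensitization of AMPA receptors and help them leave the endoplasmic reticulum. Cnih3 (chr1:181352628-181460641) stood at 56.7 TPM in replicate 1 and 84.3 in replicate 2, and Cnih2 (chr19:5092868-5098521) at 17.4 and 30.7. Cnih3 therefore exceeded its paralog 3.27-fold and 2.75-fold, and it was higher than every other auxiliary member in each library. Both cornichon genes were higher in replicate 2, with a summed level of 74.0 and 115 TPM.

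TARPs tie AMPA receptors to scaffolds of the postsynaptic density and slow their deactivation. Cacng3, which encodes gamma-3, stood at 40.5 and 49.4 TPM (chr7:122670492-122769393). Cacng2, which encodes stargazin, the first TARP described, stood at 11.8 and 14.6 TPM (chr15:77991748-78120028). The Cacng3 to Cacng2 ratio was 3.43 and 3.39 (3.41 ± 0.033, SD, n = 2), the least variable of the 9 ratios between members that were computed. Of the Cacng2 exon bases 323 overlap the gene A730060N03Rik on the opposite strand, which had 53 and 79.5 reads against 1275 and 1767 for Cacng2. Cnih2 shares 14 exon bases with Yif1a on the opposite strand, and the sources used here do not say whether counting used strand, so these 2 counts carry that uncertainty. Genes on the same strand overlap 111 exon bases of Gria2, 85 of Gria3, 19 of Gria4 and 91 of Cacng8.

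Cacng8, which encodes the TARP gamma-8, was barely detected. It had 2 reads in replicate 1 and 6 in replicate 2, or 0.060 and 0.15 TPM, where 3 reads is the most that a count of 0 allows. It was the only member under 1 TPM. Shisa9, which encodes a regulator of desensitization and recovery, stood at 9.80 and 6.87 TPM (chr16:11984113-12270902) and was the next lowest. Some properties of the Cacng8 gene model (chr7:3390683-3415648) stood apart. Its longest coding transcript has a GC content of 65.1%, at percentile 99.4 of 21866 coding genes, and RefSeq on the same build carries the gene 618 bases farther at its 3′ end. Cnih2, at 62.3% GC and percentile 98.2, had 395 and 782 reads. The part of GC content and of the 3′ end in the Cacng8 count was not tested.

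**Figure D1:**
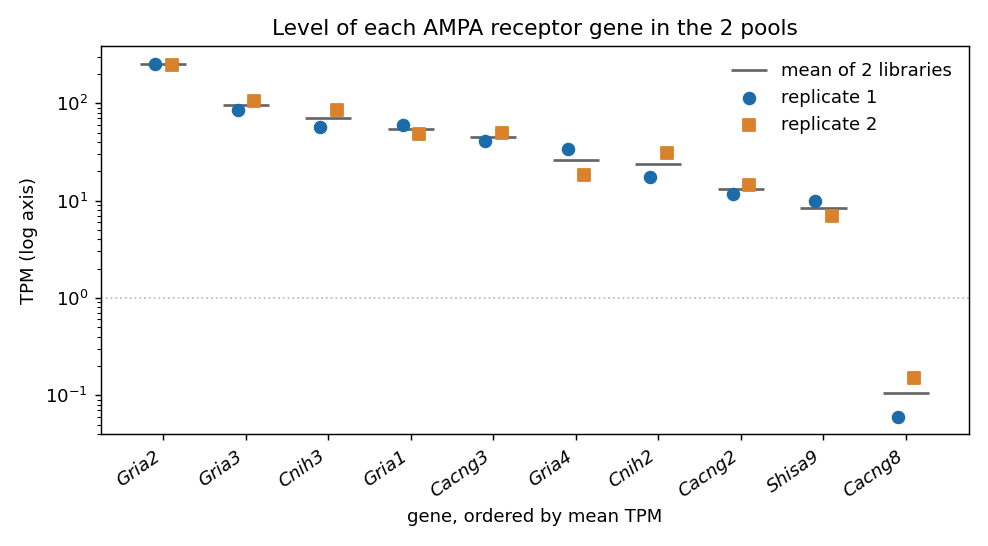
TPM of the 10 AMPA receptor genes on a log axis, with a circle for replicate 1, a square for replicate 2, a bar for their mean and a dotted line at 1 TPM. Gria2 is highest at 255 and 246 TPM, and Cacng8 at 0.060 and 0.15 TPM is the only gene under the dotted line.

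The order of mean TPM over the 10 members was Gria2, Gria3, Cnih3, Gria1, Cacng3, Gria4, Cnih2, Cacng2, Shisa9 and Cacng8. Of the 9 pairs of neighbours in this order 6 did not overlap between libraries. Cnih3 and Gria1, Gria1 and Cacng3, and Gria4 and Cnih2 did overlap, so their order is not settled by these libraries. The 6 auxiliary members summed to 136 and 186 TPM, which was 0.31 and 0.45 of the pore subunit sum (0.38 ± 0.093, SD, n = 2). Within that auxiliary sum Cnih3 held 43.5% ± 2.59, Cacng3 28.1% ± 2.22, Cnih2 14.6% ± 2.66, Cacng2 8.25% ± 0.57 and Shisa9 5.45% ± 2.48. Gene TPM counts RNA of all annotated transcript models, so it is not a count of receptor subunits.

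Transcript models were read in replicate 1, the library whose transcript table was used, and they split the pore subunit genes in different ways. Model names follow GENCODE, and each share is the deposited percent of the TPM of the gene. For Gria1 the flop model Gria1-202 held 64.0% and the flip model Gria1-201 held 36.0%, with 4015 and 2319 estimated reads. The posterior SD of these read numbers was 165 and 162, so the difference between the models exceeded the uncertainty of read assignment. These models differ by the 115-base exon and by 146 bases at the 5′ start of Gria1-201. Gria1-203, Gria1-204 and Gria1-205 had no reads assigned.

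For Gria2 the flip model Gria2-202 held 48.2% and the flop model Gria2-201 held 21.3% of the TPM. In estimated reads the order was the other way round, at 9664 for flip and 11194 for flop. Gria2-201 is 10371 bases long and Gria2-202 is 4026, and Gria2-201 alone carries 6345 further bases at the 3′ end. The flip and flop shares of Gria2 therefore rest on reads from that 3′ extension as well as on the exon and cannot be told apart from it. The retained-intron model Gria2-206 held 24.2%, and Gria2-204, also a retained intron, held 5.48%. Gria2-206 ends at position 80691521, just before the flop exon in the direction of transcription. In all 69.5% of Gria2 TPM fell on protein-coding models.

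For Gria3 the flip model Gria3-201 held 62.5%. The next was Gria3-206, at 32.1%, which holds both exons and is annotated as a target of nonsense-mediated decay. Its share rested on 2772 reads with a posterior SD of 267. The coding flop models Gria3-202 and Gria3-209 had no reads assigned, and flop without flip appeared only in the retained-intron model Gria3-208 at 4.41%. Gria3-206 has just 115 bases, the flop exon, that Gria3-201 lacks. It also runs 2013 bases farther at its 3′ end than Gria3-202, so the assignment to Gria3-206 draws on the 3′ end as well as on the flop exon.

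For Gria4 the leading model was a short one. Gria4-203, annotated as protein-coding, is 2338 bases long and ends upstream of both alternative exons, with 1299 coding bases against 2706 in the long models. It held 53.5% of the Gria4 TPM, from 806 reads with a posterior SD of 25.6. The long flip model Gria4-202 held 37.2% and the long flop model Gria4-201 held 9.30%, at 1337 and 334 reads. The posterior SD of each of these was 218 reads, so the flip to flop split of Gria4 was poorly determined.

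**Figure D2:**
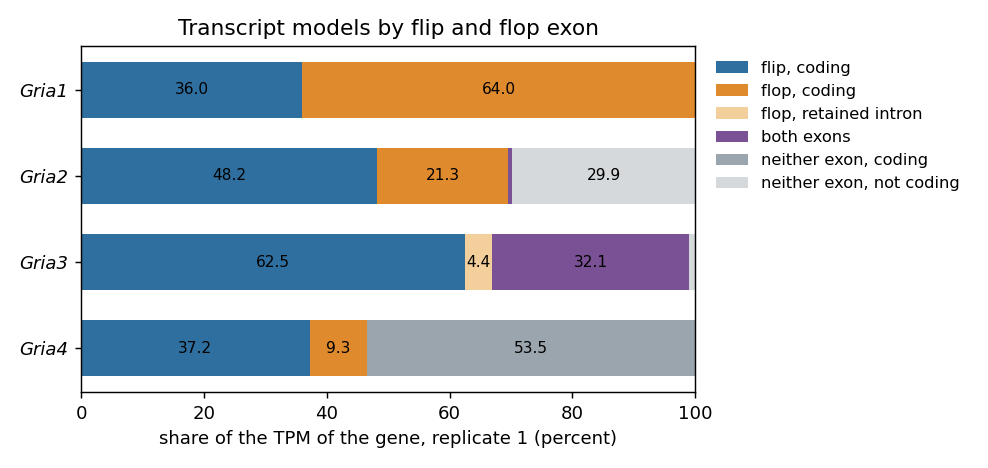
Share of the TPM of each pore subunit gene in replicate 1, split by whether a transcript model holds the flip exon, the flop exon, both or neither, and by its annotation. By TPM flop leads in Gria1 at 64.0%, flip leads in Gria2 and Gria3, and the short coding model without either exon leads in Gria4 at 53.5%. In Gria2 the flip and flop shares cannot be told apart from the 3′ extension of the flop model. That flop model had more estimated reads than the flip model, 11194 against 9664.

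Counting only protein-coding models that hold a flip or flop exon changed the composition of the pore subunits in replicate 1. Gria2 held 58.1% by this count and 58.9% by gene TPM. Gria1 held 19.4% against 13.7%, Gria3 17.4% against 19.7% and Gria4 5.12% against 7.77%. The order of Gria3 and Gria1 was reversed, with 53.3 TPM of such models for Gria3 and 59.2 for Gria1. This count was chosen after the transcript shares were seen. The reversal rests on leaving out Gria3-206, at 27.3 TPM, which is annotated as a target of nonsense-mediated decay. Reads were assigned to that model by the 3′ end as well as by the flop exon, so the order of Gria3 and Gria1 by this count is not settled.

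**Figure D3:**
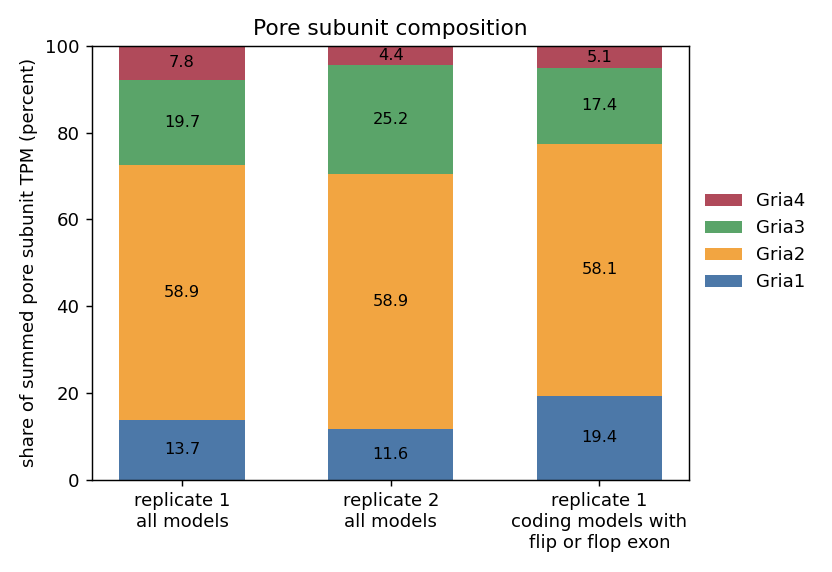
Share of each pore subunit gene in the summed TPM of Gria1 to Gria4, for each library by gene TPM and for replicate 1 by protein-coding models with a flip or flop exon. Gria2 lies between 58.1% and 58.9% in all 3 bars, and Gria1 is larger than Gria3 only in the last.

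The gene tables also hold a mean transcript length per gene, which limits what the shares in replicate 2 could be. This use of it was chosen after seeing the data. In replicate 1 this length matched the mean over models weighted by TPM to within 0.17 bases for every member. Gria4 has 3 models of only 2 different lengths, so its short model could be solved for. Gria4-203 held 53.5% in replicate 1 and 44.4% in replicate 2. The long Gria4 models then stood at 15.6 and 10.1 TPM, a ratio of 1.55 between the libraries, against 1.85 for the whole gene and 2.23 for the short model. For Gria1 the mean length was 5452 bases in replicate 1 and 5399.68 in replicate 2, within 1 base of the length of Gria1-202. A flip share from 0.46% to 100% would give this value, so the Gria1 split in replicate 2 is not determined by it.

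The auxiliary genes were simpler. Cacng2 and Cnih2 have 1 model each. Cacng3-201 held 95.1% in replicate 1, and from the mean length it held 98.3% to 98.5% in replicate 2. Cnih3-201 held 91.6% in replicate 1. For Shisa9 the coding model Shisa9-201 held 68.9% and the noncoding Shisa9-204 held 27.4%, from 571 and 58.8 reads. The 2 Cacng8 reads of replicate 1 were assigned to Cacng8-202, but its posterior mean share was 68.1% and that of Cacng8-201 was 31.9%. The model of Cacng8 is thus not settled by so few reads.

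With TMM scaling none of the 9 members that met a minimum of 10 CPM differed 2-fold between the pools. The log2 ratio was taken on CPM, which is reads scaled to library size, with TMM, a correction for library composition, and a pseudocount of 1. It covered 9190 genes whose mean CPM was 10 or more, and the 2-fold cut was applied to it. Fold values and their intervals used the same scaling of rounded counts without a pseudocount, so they differ from the log2 ratio at low counts. Of the 9 members that passed this minimum 0 lay past 2-fold, against 4.46% of all genes tested. Their median size of log2 ratio was 0.32, against 0.26 over all genes tested. With 1 library on each side there is no replicate check, and the intervals given here are 95% exact intervals for counting error only, since reads carry no molecular identifiers.

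Gria4 was 1.72-fold higher in replicate 1 (interval 1.61 to 1.83), at 106 against 61.7 CPM. Gria1 was 1.24-fold higher in replicate 1 (1.19 to 1.28) and Shisa9 1.29-fold (1.15 to 1.45), while Gria2 differed least at 1.04-fold (1.02 to 1.05). The interneuron markers were also higher in replicate 1, with Sst at 2506 and 844 TPM, Pvalb at 508 and 338 and Npy at 529 and 202. Vip, named after its values were seen, stood at 153 and 0.030 TPM. Their part in the Gria4 value was not tested.

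Cnih2 was 1.77-fold higher in replicate 2 (interval 1.57 to 2.00), at 16.9 CPM in replicate 1 and 29.9 in replicate 2. Cnih3 was 1.47-fold higher in replicate 2 (1.40 to 1.54), Cacng3 1.25-fold (1.18 to 1.33), Cacng2 1.24-fold (1.15 to 1.33) and Gria3 1.21-fold (1.18 to 1.25). Of the 5 layer 5 markers 4 were also higher in replicate 2, 3 of them past 2-fold, against 1.86% of all genes tested in that direction. The part of these markers was not tested. Cacng8 at 2 and 6 reads had a ratio of 2.68 toward replicate 2 with an interval of 0.48 to 27.2, so a difference was not detectable at this depth. When libraries were scaled by their spike-in totals, the median over all genes went from -0.03 to 0.33 on the log2 scale, toward replicate 1. Under it Gria4 lay past 2-fold at a log2 ratio of 1.13, against 7.22% of genes, and Gria3, Cacng2 and Cacng3 changed sign, to 0.085, 0.052 and 0.038.

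**Figure D4:**
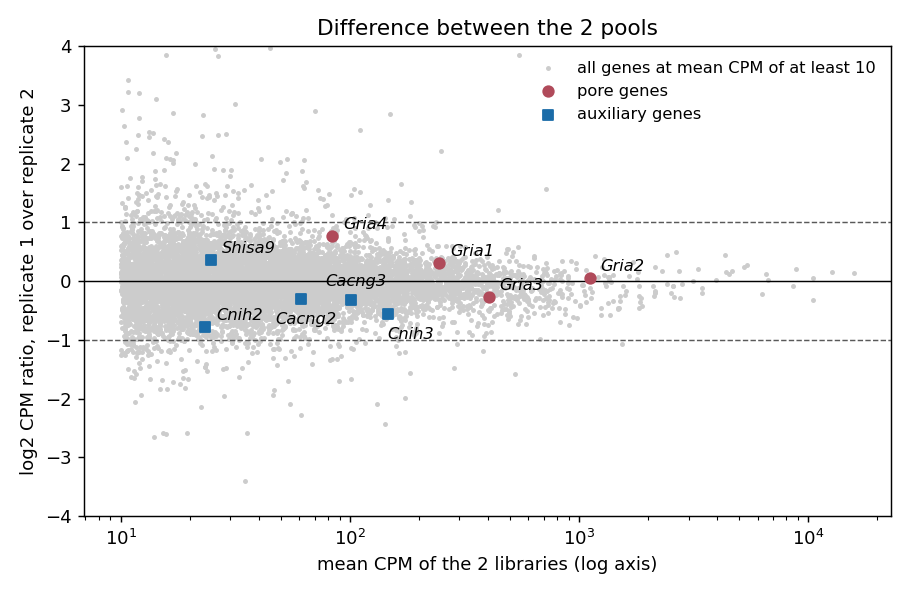
Log2 CPM ratio of replicate 1 over replicate 2 against mean CPM, with grey points for all genes whose mean CPM was 10 or more, red circles for pore subunit genes, blue squares for auxiliary genes and dashed lines at 2-fold. The 9 members shown lie between -0.79 for Cnih2 and 0.77 for Gria4, and 12 other genes lie outside the axis range.

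Other proteins of AMPA receptor complexes were read from lists of further genes by role. Of 16 further auxiliary or complex genes 12 reached 1 TPM in each library. By comparison 14057 of all 43346 genes did so in replicate 1 and 13690 in replicate 2. The highest were Olfm1, a secreted olfactomedin, at 514 and 609 TPM, Nrn1, which encodes neuritin, at 203 and 387, and Olfm2 at 19.9 and 39.7. The others had means from 0.075 TPM for Shisa8 to 29.6. The remaining TARP genes, named after their values were seen, were low: Cacng4 stood at 4.26 and 1.95 TPM, Cacng5 at 1.38 and 0.35 and Cacng7 at 0.64 and 0.42. Cacng4 had 290 and 77 reads, and by CPM it was 4.21-fold higher in replicate 1 (interval 3.26 to 5.49). Its mean of 7.67 CPM was under the minimum of 10, and at a minimum of 1 CPM 10.4% of all genes lay past 2-fold. The mean transcript length of Cacng4 also differed, at 3500 bases in replicate 1 and 1861 in replicate 2. Cacng4 is also expressed in oligodendrocyte precursors, whose 5 markers were all higher in replicate 1, and their part was not tested. Of the 10 genes of this list that met the CPM minimum, 2 lay past 2-fold toward replicate 1 (Shisa6 and Gsg1l), against 2.6% of all genes tested. Toward replicate 2 there was 1 (Syndig1), against 1.86%, and these 3 too were named after their values were seen.

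All 6 genes of receptor assembly reached 1 TPM in each library, a level that 14057 and 13690 of all 43346 genes reached. Abhd12, a lipid hydrolase, stood at 190 and 260 TPM, Frrs1l, which acts in assembly in the endoplasmic reticulum, at 99.3 and 94.0, and Abhd6, a hydrolase that limits surface delivery, at 76.1 and 76.0. Frrs1l and Abhd6 thus differed little between the pools. All 14 anchoring and trafficking genes reached 1 TPM in each library as well, with Nsf, the ATPase that disassembles SNARE complexes and binds the Gria2 subunit, at 233 and 310 TPM. Gripap1, a recycling endosome protein, stood at 41.8 and 44.8 TPM and the scaffold gene Dlg1 at 40.7 and 38.8. Grip2 was lowest at 1.31 and 1.19 TPM. None of the 6 assembly genes and none of the 11 anchoring genes that met the CPM minimum lay past 2-fold, against 4.46% of all genes.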

How the data were processed

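RNA-seq was read in 2 libraries of 1 group, each a pool of 50 laser-captured cells, made by a Smart-seq type protocol per the labels. The authors' deposited gene tables, 1 per library, hold expected counts (estimated reads, not normalized), TPM over all listed features including spike-ins, FPKM, and the posterior SD of each count, a score in reads per the file headers. The deposited transcript table of replicate 1 adds each transcript's percent of the TPM of its gene. The tables rest on mm10 and GENCODE M4, per the text files deposited with them. The aligner, the quantifier and whether strand was used: not given in the sources used here.

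Symbols, exons and sequences came from GENCODE M21 on the same build, which matched 42462 of 43346 gene identifiers. Of 39 transcript models of the members 37 had the same length in M21, and Cnih2-201 and Gria4-202 did not. Flip and flop exons were assigned by their known peptide difference. Rounded expected counts were scaled with TMM (edgeR 4.0.16 in R 4.3.3), or with DESeq2 1.42.0 size factors as an alternative. The ratio step was tested on simulated data. Other values used Python 3.11.15, pandas 2.3.3, numpy 2.4.6 and scipy 1.17.1. Depth was 24171434 and 27946180 estimated reads.

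Named genes are all members, the 3 highest of each further list and genes at 0 in both libraries; named transcripts are the leading model, those at 10% or more and those with a flip or flop exon. Bcl11b is named as the layer 5 marker that went the other way, other genes are said to be chosen later, and 1 gene that this rule names is not reported here. Members and lists were chosen with earlier results of these data known. Alternatives were the unit, the point estimate, the scaling, the pseudocount, the minimum CPM, the models counted and each library left out.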

Additional observations from a re-analysis of the deposited data

How the results depend on the processing

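Of 184 alternative values for 47 results, 62 could not leave their range by construction: 42 that leave out 1 of 2 libraries and 20 that change only the CPM minimum for a member's own ratio. Of the other 122, 100 stayed within the spread between libraries, the counting interval or 1.5 times a share of genes, and 22 moved. Some of the 100 were fixed by construction as well. Shares within a library cannot change with rescaled FPKM, which is TPM times a constant there. Cacng2 and Cnih2 have 1 model each, so their leading share is fixed. Counting only protein-coding models cannot change a gene whose TPM is all coding. Among the 22 that moved, with spike-in totals, the log2 ratios of 3 members below 2-fold changed sign, to 0.085 for Gria3, 0.052 for Cacng2 and 0.038 for Cacng3. With posterior mean TPM the Gria2 share of pore subunit TPM was 58.7%, against a spread between libraries of only 0.040. Leaving out a library gave 58.9% for each, from 41.6% to 45.3% for the Cnih3 share of auxiliary TPM and from 0.31 to 0.45 for the auxiliary to pore ratio. The share of genes past 2-fold was 7.22% with spike-in totals, 10.4% with a CPM minimum of 1 and 8.31% with any count above 0, against 4.46%. With spike-in totals 91.1% of these genes were higher in replicate 1, against 58.3%, and 1 member, Gria4, lay past 2-fold. Under the other 5 alternatives 0 members did. Of these a CPM minimum of 1 and any count above 0 left the ratio of each member unchanged by construction. With protein-coding models only, the flip share of Gria2 was 69.3% and that of Gria3 models with both exons was 0%, since those models are not annotated as coding. No paired analysis was possible because there is 1 group. Transcript shares come from 1 library and have no replicate.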

Other observations

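Of 3 genes of the RNA editing enzyme family 2 reached 1 TPM in each library. Adarb1, the enzyme known for the calcium permeability site of Gria2, stood at 18.5 TPM in replicate 1 and 18.9 in replicate 2 (18.7 ± 0.33, SD, n = 2). Adar stood at 7.44 and 9.41 TPM. Adarb2, which is known from interneurons, stood at 2.51 and 0.29 TPM, from 147 and 10 reads. The count tables do not show whether Gria2 RNA was edited.

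Paralogs of the auxiliary genes showed a different order. Cnih1, a cornichon of the general secretory pathway, stood at 163 and 185 TPM, above both Cnih2 and Cnih3 in each library, and Cnih4 at 69.4 and 51.1. The muscle calcium channel gene Cacng1 had no reads in either library, which allows up to 3 reads.

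Dlg4, the gene of the scaffold protein PSD-95, stood at 1.27 and 1.97 TPM, from 79 reads in each library, below Dlg1, Dlg2 and Dlg3 and below Cacng2. By CPM it stood at 3.38 and 3.02, and its mean transcript length was 3204 bases in replicate 1 and 1886 in replicate 2. The part of the gene model in the Dlg4 count was not tested. This gene was named after its values were seen.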
